A study of Mus musculus with 24 samples.

Results

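The 4 tissue inhibitors of metalloproteinases, Timp1, Timp2, Timp3 and Timp4, the secreted proteases Adamts1, Adamts4, Adamts5 and Adamts9, and the matrix metalloproteinases Mmp2 and Mmp14 were followed over 24 one-colour arrays. A probe set was taken where the platform annotation gave exactly 1 of these 10 symbols, which found 28 probe sets for 10 of the 18193 genes named on the array. Of these, 23 passed a filter on dim signal and were tested, at least 1 for each gene. The other 5 (1 of Timp2, 1 of Adamts4, 2 of Adamts5 and 1 of Adamts9) read between -101.42 and 21.38 intensity units on every array and were not tested. The cells were embryonic cortical neurons of Il1rap-/- mice, so all groups lacked the cells' own accessory chain of the IL-1 receptor. The neurons expressed AcP, the accessory chain itself, AcP together with AcPb, AcPb alone, or CD25, a chain of the IL-2 receptor. In each of these 4 arms, 3 arrays came from cells kept for 4 h with IL-1b (10 ng/ml) and 3 from cells under the control stimulation. The labels do not say how the receptors were introduced or how old the embryos were.

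Metalloproteinases of the Mmp and Adamts families cut proteins of the extracellular matrix, and Timps bind to their active site and block them. In the brain, Adamts1, Adamts4, Adamts5 and Adamts9 cut chondroitin sulfate proteoglycans such as versican, brevican and aggrecan, which surround neurons. Mmp14 sits in the cell membrane and activates the secreted Mmp2, a step in which Timp2 takes part. Timp1 and Adamts1 are known as genes that inflammatory signals can induce, while Timp2 is widely and steadily expressed. Timp3 binds to the matrix and blocks Adamts proteases as well as Mmps.

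The promoters of Adamts1, Timp1 and Timp4, on which the results below turn, are shown first. Each run holds the 250 bases before the RefSeq gene start in GRCm38.p6, read 5′ to 3′ on the strand of the gene, in lower case with matches to the searched motifs in capitals. Adamts1 lies on the minus strand at chr16:85803114-85803363, Timp1 on the plus strand at chrX:20869916-20870165 and Timp4 on the minus strand at chr6:115252206-115252455.
Adamts1: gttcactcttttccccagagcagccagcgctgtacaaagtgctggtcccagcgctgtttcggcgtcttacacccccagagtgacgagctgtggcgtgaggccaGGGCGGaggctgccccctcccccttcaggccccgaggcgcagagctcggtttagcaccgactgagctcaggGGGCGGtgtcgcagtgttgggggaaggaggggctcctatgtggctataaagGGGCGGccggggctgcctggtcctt
Timp1: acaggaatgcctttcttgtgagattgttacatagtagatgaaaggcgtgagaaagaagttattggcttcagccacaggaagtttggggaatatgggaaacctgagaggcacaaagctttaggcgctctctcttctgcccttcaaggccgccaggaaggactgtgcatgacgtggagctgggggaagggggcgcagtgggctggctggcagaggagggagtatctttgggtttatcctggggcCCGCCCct
Timp4: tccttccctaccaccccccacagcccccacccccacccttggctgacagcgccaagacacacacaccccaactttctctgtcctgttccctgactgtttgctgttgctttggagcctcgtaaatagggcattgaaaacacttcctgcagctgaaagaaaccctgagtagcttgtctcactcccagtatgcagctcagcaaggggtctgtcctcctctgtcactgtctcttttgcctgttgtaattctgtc
The capitals mark GGGCGG, the core of the SP1 site, on either strand. It stood 3 times before Adamts1, with first bases 147, 76 and 25 bases before the start. Timp1 held it once on the opposite strand, 8 to 3 bases before the start, and Timp4 did not hold it. The RefSeq table held windows for 7 of the 10 genes, and named here without a sequence are Adamts4, Adamts5 and Mmp2. Timp2, Timp3 and Adamts9 held GGGCGG once each and Mmp14 held it 2 times, while 32.742% of all 32851 windows of this length held it. The motifs GGGNNTTCC (NF-kB), TGANTCA (AP-1) and TTGCNNAA (C/EBP) were searched on both strands, no letter of one motif being masked for another. They occur in 4.977%, 6.749% and 9.564% of all windows, and none of the 7 windows held any of them.

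The stimulus was checked on known IL-1 targets. Cxcl10, a chemokine induced through NF-kB, averaged 2512 ± 277 intensity units in AcP IL-1b neurons, against 13.5 ± 15.8 in AcP controls (SD, n = 3 each). Its IL-1b mean was 2489 in the AcP+AcPb arm, 19.96 in the AcPb arm and 191 in the CD25 arm, whose controls were at 199. Nfkbia, an inhibitor of NF-kB, rose by 0.97 ± 0.08 log2 units in AcP neurons and by 0.70 ± 0.08 in AcP+AcPb neurons (SE, adjusted p = 1.5e-06 and 0.00019). Probe sets of Il1rap (111 to 136 in all group means) and Il2ra (19.2 to 37.7) need not lie in the introduced sequences and check no label. The brightest probe set of Il1r1, another chain of the IL-1 receptor, had group means from -11.93 to -0.31 and was not tested. Array medians lay between 55.02 and 66.41, and the AcP controls were the most spread group, with mean correlations within the group of 0.9643 to 0.9684, beside 0.9766 to 0.9841 in the others. The cultures carried strong neuronal signal, with a summed intensity of 13 neuron markers between 49130 and 58190 on every array, but astrocyte markers were also high, at sums of 23520 to 31940 for 10 genes. Of 11 microglia and macrophage markers, 4 (Cx3cr1, Aif1, C1qa and C1qc) had overall means below 0, and the other 7 averaged from 9.18 (Itgam) to 469.8 (Csf1r). Of 8 endothelial markers, 3 (Pecam1, Cldn5 and Tie1) were below 0 and the other 5 averaged from 16.4 (Tek) to 74.2 (Kdr). In such mixed RNA, fewer cells of a type and less RNA per cell cannot be told apart.

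Among the 10 genes, only Adamts1 had a called IL-1b response, a rise in AcP and in AcP+AcPb neurons. The AcP+AcPb call depended on the processing, as given below. Adamts1 is a secreted protease that cuts versican and aggrecan. It read 305, 347 and 291 intensity units on the AcP IL-1b arrays, against 109, 111 and 107 on the AcP control arrays. The lowest IL-1b array stood far above the highest control array. The change was 1.40 ± 0.17 log2 units (SE), a 2.63-fold rise with an adjusted p of 1e-04 by limma, and it ranked 36 by p among 30468 probe sets. With both chains present, Adamts1 read 259, 293 and 325 on the AcP+AcPb IL-1b arrays, against 125, 141 and 212 on the AcP+AcPb control arrays. The groups did not overlap, and the rise of 0.84 ± 0.17 log2 units was called (adjusted p = 0.034). Control 3, at 212, stood nearest to the IL-1b arrays. It was also the one AcP+AcPb control whose label ended in 23B, a code of unstated meaning carried by all 3 IL-1b arrays, while the other 2 controls carried 22B. With this code as a block, the fit set the 3 IL-1b arrays against control 3 alone, the highest of the controls. The change was then 0.43 log2 units. Code and stimulus therefore largely cannot be told apart within this arm. The call was lost in 9 of 19 alternatives in all, among them leaving out control 1, control 2, IL-1b 2 or IL-1b 3.

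In AcPb neurons Adamts1 read 229, 194 and 154 on the IL-1b arrays, against 168, 130 and 133 on the control arrays. These groups overlapped, and the difference of 0.37 ± 0.17 was not called (adjusted p = 0.46). In CD25 neurons it read 235, 230 and 294 on the IL-1b arrays, against 241, 293 and 321 on the control arrays, a change of -0.16 ± 0.17 (adjusted p = 0.9). The response in AcP neurons exceeded that in CD25 neurons by 1.56 ± 0.23 log2 units (adjusted p = 0.0028), with a 95% interval from 1.07 to 2.05. That call held in 25 of 25 alternatives, over which the difference ran from 1.26 to 1.67. The response in AcP+AcPb neurons exceeded that in CD25 neurons by 1.01 ± 0.23, which was not called (adjusted p = 0.17). Between AcPb and AcP neurons the responses differed by -1.02 ± 0.23 (adjusted p = 0.15, 95% interval -1.51 to -0.53). Between AcP+AcPb and AcP neurons the difference was -0.55 ± 0.23 (adjusted p = 0.95, 95% interval -1.05 to -0.06). None of these last 3 differences passed the threshold, although their 95% intervals, which are not adjusted for the number of probe sets, did not reach 0.

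**Figure D1:**
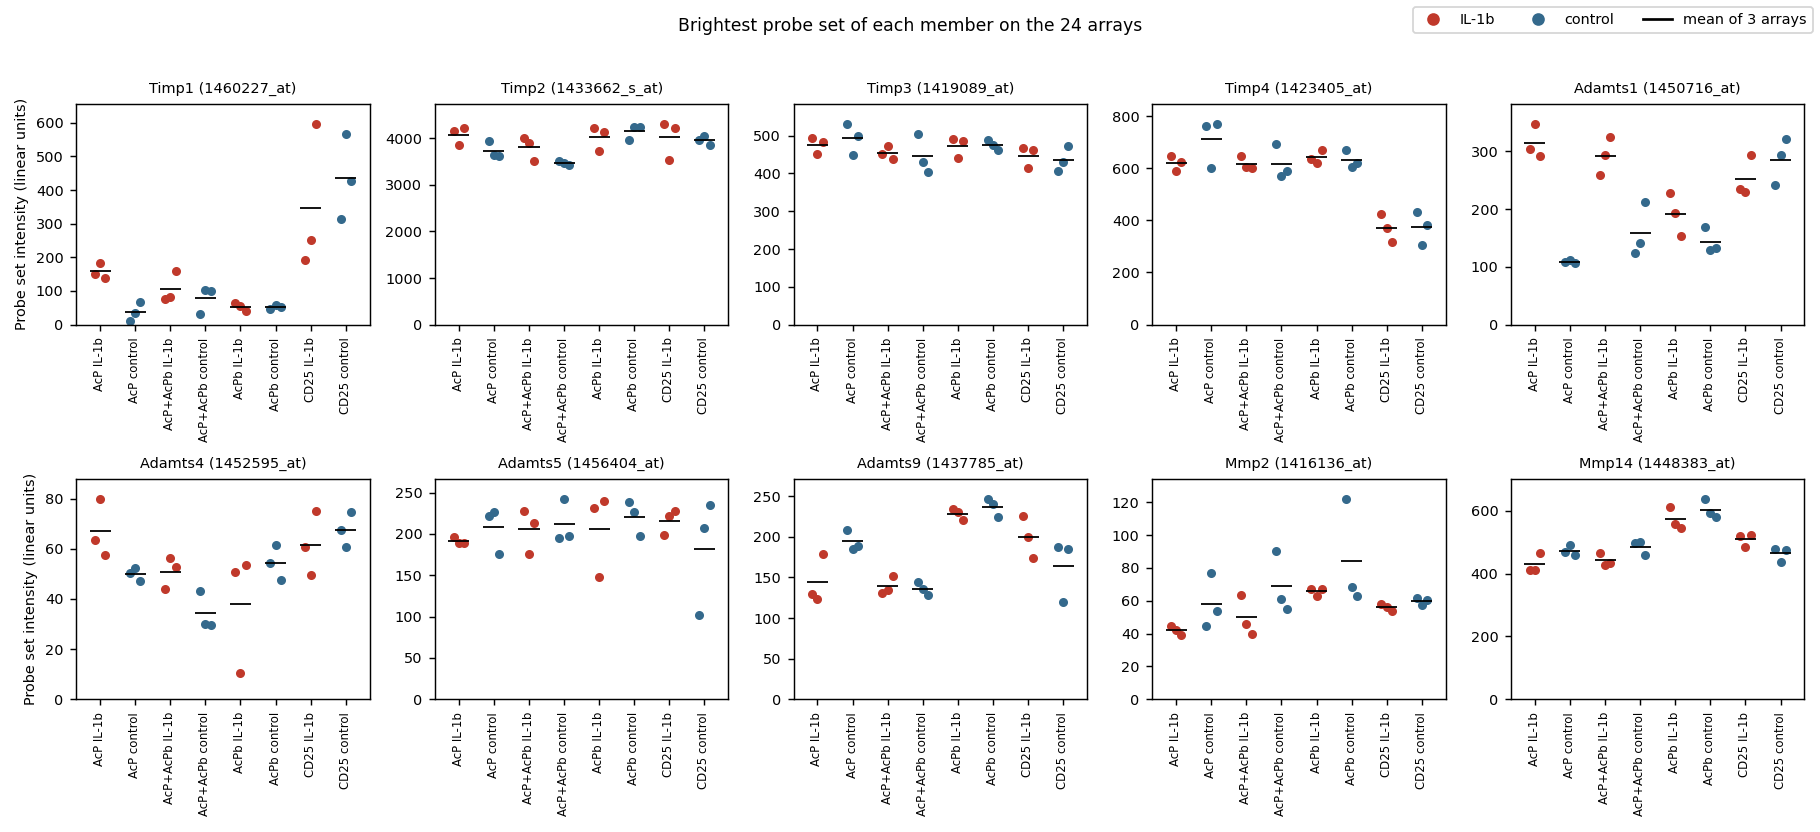
Intensity (linear units) of the brightest probe set of each of the 10 genes on the 24 arrays, in 8 groups of 3 (points, red for IL-1b and blue for control; line, mean). Adamts1 lies at 291 to 347 in AcP IL-1b and at 107 to 111 in AcP control arrays, and Timp1 and Timp4 set the 6 CD25 arrays apart from the other 18.

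In order of level, the Adamts1 groups fell into an upper and a lower set. Group means were 314 ± 29.3 and 109 ± 1.80 in AcP IL-1b and control arrays, and 292 ± 32.9 and 159 ± 46.3 in AcP+AcPb IL-1b and control arrays (SD, n = 3). They were 192 ± 37.5 and 144 ± 21.6 in AcPb IL-1b and control arrays, and 253 ± 35.3 and 285 ± 40.4 in CD25 IL-1b and control arrays. The ranges of the 4 highest groups (AcP IL-1b, AcP+AcPb IL-1b and both CD25 groups) overlapped one another. Below them, the 2 AcPb groups and the AcP+AcPb controls overlapped one another, and the AcP controls lay below all other arrays.

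Over the 8 group means on the log2 scale, each centred on its own mean, 3 genes followed Adamts1 most closely. They were Cebpb, a transcription factor of the C/EBP family, Irgm1, an interferon-inducible GTPase, and Prr5l, with root mean square differences of 0.127, 0.128 and 0.185 log2 units. The median over all genes compared was 0.499. Cebpb averaged 428 in AcP IL-1b and 170 in AcP control arrays, beside 362 in CD25 IL-1b and 356 in CD25 control arrays. This likeness rests on 8 group means that share their arrays with Adamts1, and it is a description.

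**Figure D2:**
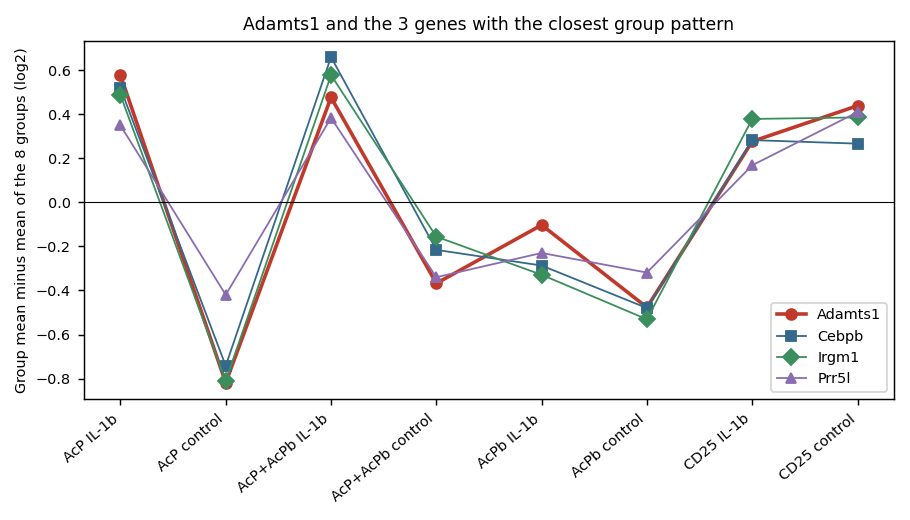
Group means of Adamts1 and of the 3 genes with the closest pattern, on the log2(value + 16) scale, each centred on its own mean over the 8 groups (lines join groups for reading only). All 4 genes are lowest in AcP controls, below 0 in the AcPb groups and AcP+AcPb controls, and above 0 in AcP IL-1b, AcP+AcPb IL-1b and both CD25 groups.

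Timp1, the inducible inhibitor, had the largest fitted IL-1b change of the 23 tested probe sets in AcP neurons, but it did not pass the threshold. It read 151, 184 and 139 on the AcP IL-1b arrays, against 11.9, 34.0 and 66.9 on the AcP control arrays. The groups did not overlap, while the controls spread over a wide range near the dim end. The fitted change was 1.83 ± 0.42 log2 units (adjusted p = 0.081), with a 95% interval from 0.94 to 2.72. Without AcP control 3 it was 2.21 ± 0.44 and called (adjusted p = 0.021), and over all 19 alternatives the adjusted p ran from 0.021 to 0.43. In the AcP+AcPb arm Timp1 read 77.2, 80.7 and 159 with IL-1b, against 30.9, 102 and 100.5 without (0.43 ± 0.42, adjusted p = 0.79). In the AcPb arm it read 63.6, 55.7 and 41.8 with IL-1b, against 47.4, 59.6 and 52.5 without. Both pairs of groups overlapped, and the AcPb change was 0.00 ± 0.42 (adjusted p = 1). In the CD25 arm it read 191, 251 and 597 with IL-1b, against 315, 568 and 428 without (-0.45 ± 0.42, adjusted p = 0.89). The excess of the AcP over the CD25 response, 2.28 ± 0.60, was not called (adjusted p = 0.23).

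The other inhibitors showed no called IL-1b change in any arm. Over the 4 arms, the fitted changes of the 5 tested Timp2 probe sets lay between -0.21 and 0.16 log2 units and those of the 4 Timp3 probe sets between -0.25 and 0.27. The leading Timp4 probe set lay between -0.18 and 0.02. For the leading probe set of Timp2 in AcP neurons, at 4159, 3852 and 4213 with IL-1b against 3948, 3632 and 3621 without, the 95% interval ran from -0.03 to 0.28. A rise of more than 0.28 on that probe set lies outside this interval, which does not bound the other tested Timp2 probe sets. The second Timp4 probe set read 170, 0.36 and 231 on the AcPb IL-1b arrays, against 228, 216 and 248 on the AcPb controls. That single low array goes with a wide error (-1.44 ± 0.66, adjusted p = 0.48).

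The remaining proteases also had no called response. Adamts4, an aggrecanase, read 63.7, 80.0 and 57.6 in AcP IL-1b neurons, against 50.2, 52.5 and 47.1 in AcP controls. These 2 groups did not overlap, but the difference of 0.33 ± 0.25 was not called (adjusted p = 0.81), with a 95% interval from -0.20 to 0.85. Adamts9, a protease of versican, read 130, 123 and 179 in AcP IL-1b neurons, against 209, 185 and 189 in AcP controls. Its fitted value was opposite in sign to that of Adamts1, at -0.41 ± 0.14, and was not called (adjusted p = 0.35). Adamts5 is an aggrecanase like Adamts4, and its largest fitted value was 0.44 ± 0.21, in AcPb neurons on its second probe set (adjusted p = 0.51). Mmp14 had fitted changes of -0.13 ± 0.07 in AcP and in AcP+AcPb neurons on its leading probe set. Its target Mmp2 read 44.4, 42.5 and 39.2 in AcP IL-1b neurons, against 44.4, 76.6 and 53.7 in AcP controls (-0.33 ± 0.19, adjusted p = 0.69). A second, dim Mmp2 probe set read 11.9, 47.0 and 53.1 in AcP+AcPb IL-1b neurons, against 3.83, -77.1 and 11.4 in AcP+AcPb controls (1.27 ± 0.30, adjusted p = 0.10). It was called there only without AcP+AcPb IL-1b 1.

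**Figure D3:**
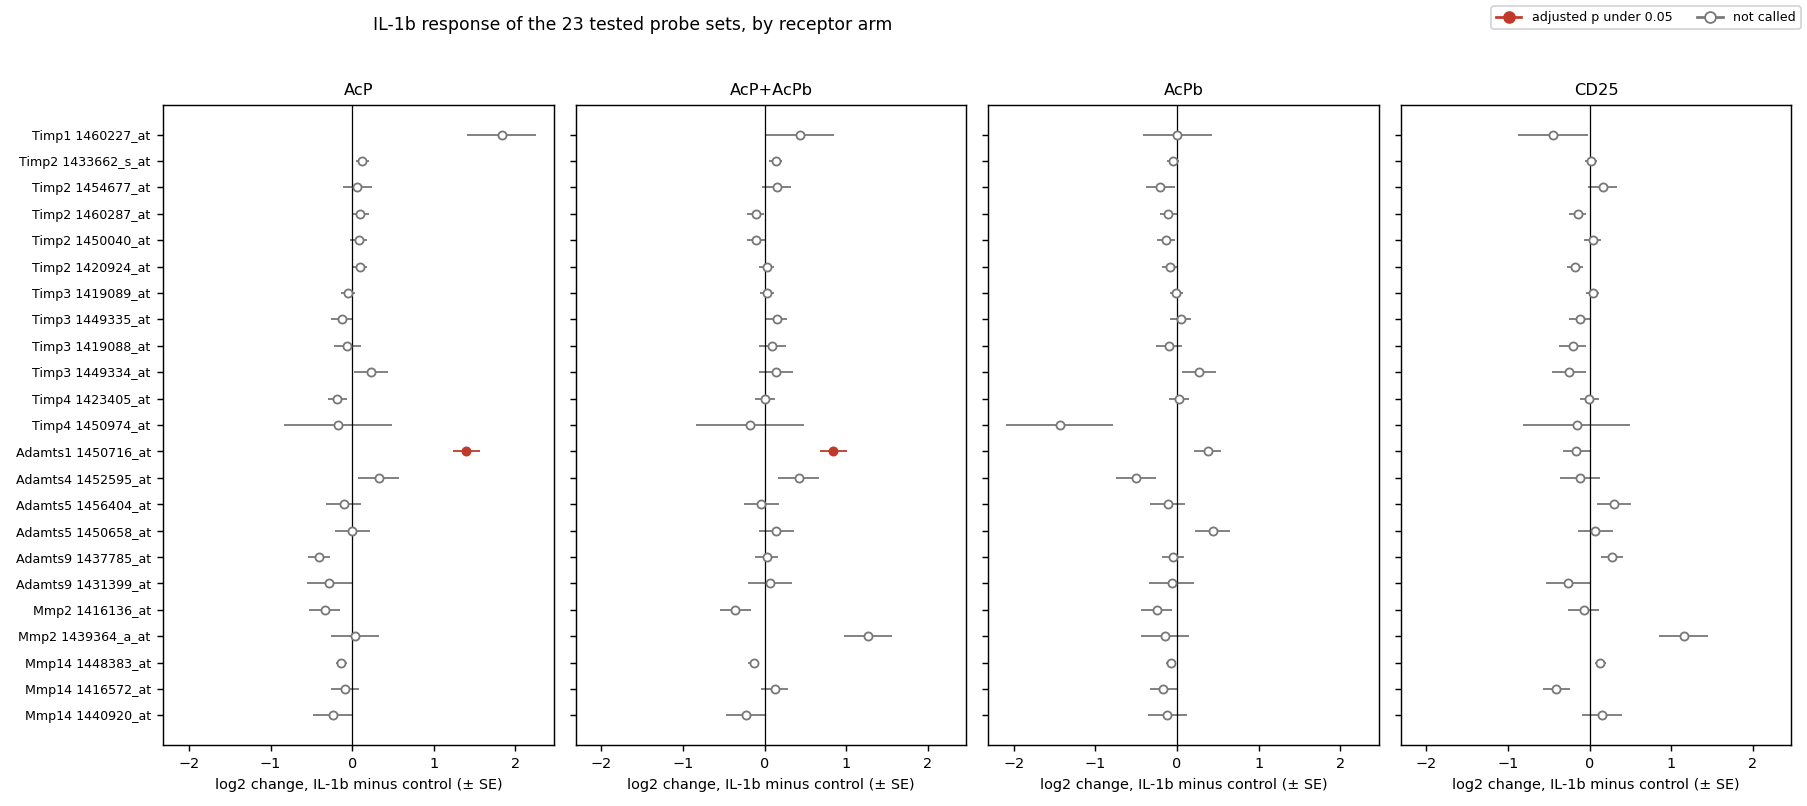
IL-1b response of the 23 tested probe sets in the 4 arms: horizontal axis, log2 change of IL-1b over control with its SE (limma), 1 row per probe set, filled red where the adjusted p was under 0.05. Only Adamts1 is filled, at 1.40 in AcP and 0.84 in AcP+AcPb neurons, while Timp1 in AcP neurons stands at 1.83 unfilled.

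Counted over the tested probe sets, 1 of 23 was called in AcP neurons, where 0.404% of all tested probe sets were called, and 1 of 23 in AcP+AcPb neurons, where 0.256% were. None of 23 was called in AcPb neurons, where 0.00985% of all were, or in CD25 neurons, where 0% were. At an unadjusted p under 0.05 limma gave 2 of 23 in each of these 2 arms, beside 3073 of 30468 over the whole array in AcPb neurons and 1712 in CD25 neurons. For the differences between responses, 1 of 23 was called for AcP against CD25 (0.19% of all), and 2 without AcP control 3, Timp1 being added. None was called for AcP+AcPb against CD25 (0.141% of all), AcPb against AcP (0.148%) or AcP+AcPb against AcP (0.00328%), with 3, 3 and 4 of 23 at an unadjusted p under 0.05, beside 3079, 2390 and 1559 of 30468. The median change of the 23 probe sets in AcP neurons was -0.05 log2 units, beside -0.0014 over all tested. In AcP neurons 5 of 23 had groups that did not overlap, beside 10.1% of all, and in AcP+AcPb neurons 4 of 23, beside 16.9%. In AcPb neurons it was 2 of 23, beside 21.7%, and in CD25 neurons 2 of 23, beside 14%.

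Before any IL-1b, the receptor arms differed in the same 3 genes: Timp1 and Adamts1 were lower, and Timp4 higher, in each of the AcP, AcP+AcPb and AcPb arms than in the CD25 arm. These 3 comparisons share the CD25 control arrays. All AcP+AcPb arrays carried the code 22B or 23B, and all arrays of the other arms carried 21B. Arm and code therefore cannot be told apart in any level of AcP+AcPb against another arm. Timp1 read 11.9, 34.0 and 66.9 in AcP controls, 30.9, 102 and 100.5 in AcP+AcPb controls and 47.4, 59.6 and 52.5 in AcPb controls, against 315, 568 and 428 in CD25 controls. No array of the 3 other arms reached the lowest CD25 array. The differences from CD25 were -3.18 ± 0.42 in the AcP arm, -2.35 ± 0.42 in the AcP+AcPb arm and -2.68 ± 0.42 in the AcPb arm (adjusted p = 6.7e-05, 0.0013 and 0.00073). Adamts1 differed from CD25 by -1.26, -0.81 and -0.92 in the AcP, AcP+AcPb and AcPb arms (SE 0.17 each; adjusted p = 5.8e-05, 0.0034 and 0.0025). All 9 other controls, at 107 to 212, lay below the lowest CD25 control at 241. Timp1 and its direction were called under all alternatives in these 3 comparisons, and Adamts1 under all but 1, the fit of the AcP+AcPb and CD25 controls alone.

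Timp4, an inhibitor known from brain and heart, ran the other way. It read 760, 601 and 770 in AcP controls, 692, 569 and 587 in AcP+AcPb controls and 670, 605 and 620 in AcPb controls, against 431, 306 and 382 in CD25 controls. The differences from CD25 were 0.90 ± 0.12, 0.71 ± 0.12 and 0.75 ± 0.12 in the AcP, AcP+AcPb and AcPb arms (adjusted p = 6e-05, 0.00073 and 0.00078). The AcP call was lost in 1 of 19 alternatives, the limma fit of the AcP and CD25 controls alone (adjusted p = 0.064). The AcP+AcPb and AcPb calls held in all, the AcPb call close to the threshold at its weakest. Over all stimuli, the 18 arrays of the other arms ranged from 569 to 770 with a median of 622, and the 6 CD25 arrays from 306 to 431 with a median of 377. The second Timp4 probe set stood higher than CD25 in the same 3 comparisons, by 1.46, 1.28 and 1.20 log2 units with an SE of 0.66, and was not called (adjusted p = 0.17, 0.2 and 0.36).

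**Figure D4:**
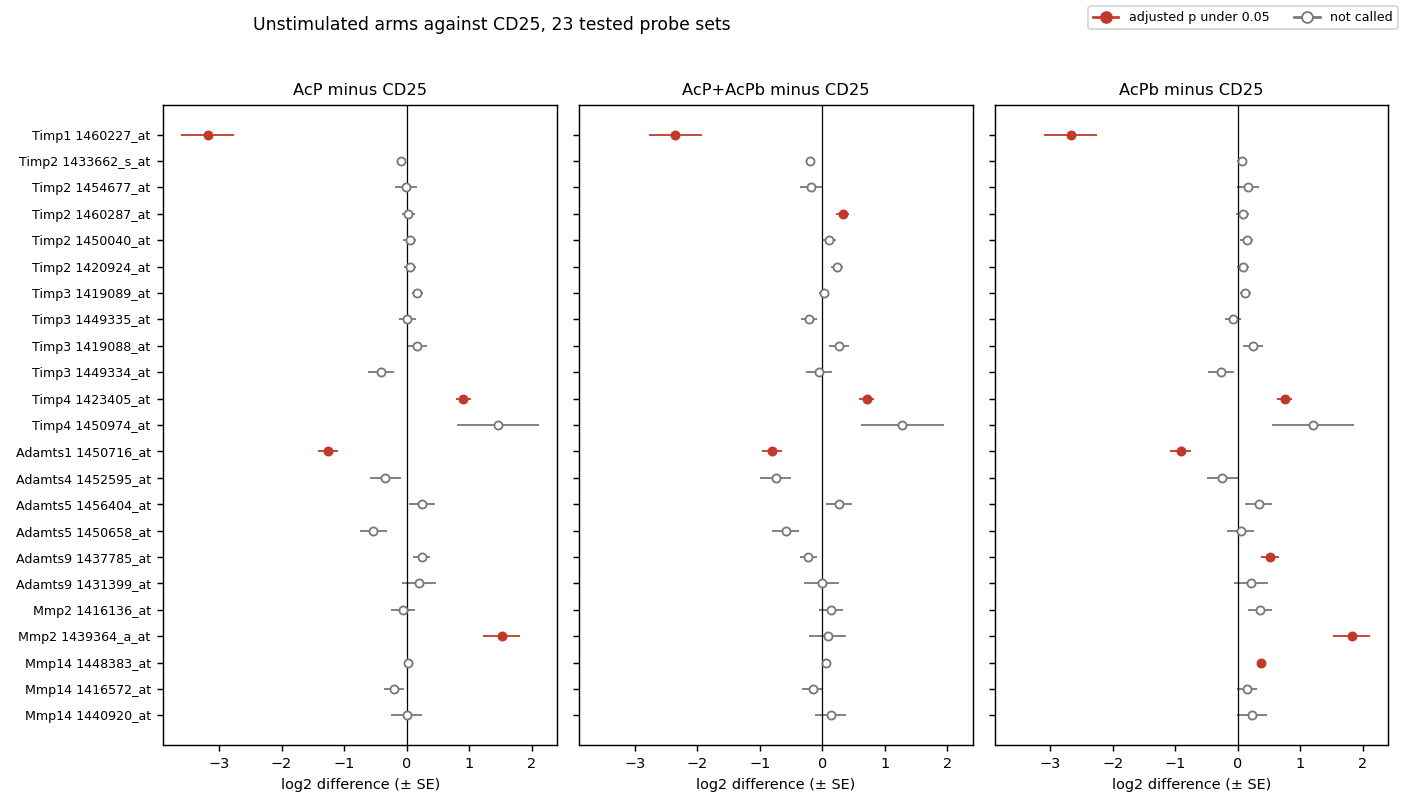
Differences between unstimulated arms and CD25 for the 23 tested probe sets: horizontal axis, log2 difference with its SE (limma), 1 row per probe set, filled red where the adjusted p was under 0.05. Timp1 and Adamts1 are filled left of 0 and Timp4 1423405_at right of 0 in all 3 panels, while Mmp14, Adamts9, Mmp2 and Timp2 are filled in 1 or 2 of them.

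Before IL-1b, a smaller set of proteases stood higher in AcPb than in CD25 neurons. With IL-1b, none of these proteases was called between the AcPb and CD25 arms. Mmp14 read 639, 594 and 579 in AcPb controls, against 479, 439 and 475 in CD25 controls, with no overlap (0.37 ± 0.07, adjusted p = 0.0023). In AcP and AcP+AcPb controls Mmp14 lay between 458 and 502, and its differences from CD25 of 0.02 and 0.06 were not called. The other 2 Mmp14 probe sets had positive, uncalled differences in AcPb controls (0.15 and 0.22). Adamts9 read 247, 240 and 225 in AcPb controls, against 188, 120 and 186 in CD25 controls (0.51 ± 0.14, adjusted p = 0.04), a call lost in 7 of 19 alternatives, among them leaving out CD25 control 2 or any 1 of the AcPb controls. The dim second probe set of Mmp2 was called in AcPb (1.82 ± 0.30) and AcP controls (1.52 ± 0.30), where it read 61.6, 58.2 and 39.6 in AcPb and 44.8, 45.3 and 29.8 in AcP controls, against -5.31, 12.3 and -23.1 in CD25 controls. Such values lie near the background, and the size of that difference depended on the value added before the logarithm (from 0.78 to 3.14 in AcPb controls over the alternatives). The brighter Mmp2 probe set was not called in any comparison.

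Timp2 and Timp3 differed little between unstimulated arms. Of their 9 tested probe sets, 1 was called, Timp2 1460287_at in AcP+AcPb controls, at 1555.8, 1850.4 and 1629, against 1289.5, 1247 and 1454 in CD25 controls (0.33 ± 0.10, adjusted p = 0.04). The leading Timp2 probe set pointed the other way there (-0.19 ± 0.07, adjusted p = 0.093). The call was lost in 7 of 17 alternatives, among them leaving out CD25 control 1 or 2 or AcP+AcPb control 2 or 3. Adamts4 and Adamts5 had no call, although Adamts4 in AcP+AcPb controls, at 43.0, 30.1 and 29.6 against 67.4, 60.7 and 74.8 in CD25 controls, came close (-0.74 ± 0.25, adjusted p = 0.055).

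In all, 4 of 23 probe sets were called between AcP and CD25 controls (2 higher, 2 lower), where 10.3% of all tested probe sets were called, and 4 of 23 between AcP+AcPb and CD25 controls (2 higher, 2 lower), where 14.3% were. Between AcPb and CD25 controls 6 of 23 were called (4 higher, 2 lower), against 4.59% of all. The AcP and AcPb counts include the dim Mmp2 probe set, which passed the filter only through arrays other than the CD25 controls. Between AcP+AcPb and AcP controls none was called, where 0.181% of all were, and limma gave 4 of 23 at an unadjusted p under 0.05, beside 3275 of 30468. The shares of 4 in 23 (17.4%) stood nearer to the share over the array than that of 6 in 23 (26.1%). Groups did not overlap for 7, 8 and 10 of 23 probe sets in the AcP, AcP+AcPb and AcPb comparisons with CD25, beside 24.2%, 38.8% and 29.2% of all.

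With IL-1b in every arm, a comparison added after seeing the data, Adamts1 was not called in any arm against CD25. Its differences from CD25 IL-1b arrays were 0.30, 0.20 and -0.38 in the AcP, AcP+AcPb and AcPb arms, each with an SE of 0.17 and none called (adjusted p = 0.3, 0.49 and 0.31). Timp1 was still lower in the AcP+AcPb and AcPb arms, at -1.47 ± 0.42 and -2.23 ± 0.42 (adjusted p = 0.034 and 0.0069), and at -0.90 ± 0.42 in the AcP arm, which was not called (adjusted p = 0.22). Without CD25 IL-1b array 3, which read 597, neither Timp1 call was made, and the AcP+AcPb call was also lost without AcP+AcPb IL-1b 1 or 2. Timp4 was higher in all 3 arms, by 0.73 ± 0.12, 0.72 ± 0.12 and 0.77 ± 0.12 (adjusted p = 0.00078, 0.00099 and 0.0012). Mmp14 was lower in AcP IL-1b neurons, at 413, 411 and 465 against 521, 484 and 524 in CD25 IL-1b neurons (-0.24 ± 0.07, adjusted p = 0.032). That call was lost without CD25 IL-1b 1 or 3 or AcP IL-1b 1 or 2. Adamts9 was lower in AcP+AcPb IL-1b neurons, at 131, 134 and 151 against 226, 199 and 173 in CD25 IL-1b neurons (-0.47 ± 0.14, adjusted p = 0.036), a call lost without CD25 IL-1b 1 or 2 or AcP+AcPb IL-1b 1 or 2.

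The steady inhibitors reached the threshold in these stimulated comparisons on some of their probe sets. Timp2 1420924_at was higher than in CD25 by 0.32 ± 0.10 in AcP and by 0.44 ± 0.10 in AcP+AcPb IL-1b neurons, and Timp2 1460287_at by 0.37 ± 0.10 in AcP+AcPb IL-1b neurons. The 2 brightest Timp2 probe sets were not called. Timp3 1419088_at was higher by 0.57 ± 0.16 in AcP+AcPb IL-1b neurons, while the leading Timp3 probe set differed by 0.02 ± 0.08. In all, 3 of 23 probe sets were called in the AcP arm (8.1% of all), 6 of 23 in the AcP+AcPb arm (10.7% of all) and 2 of 23 in the AcPb arm (2.15% of all). The Timp2 1420924_at call in the AcP arm was lost in 7 of 18 alternatives, among them leaving out CD25 IL-1b 3 or AcP IL-1b 1 or 3. The Timp3 call was lost without CD25 IL-1b 2 or 3 or AcP+AcPb IL-1b 1 or 2, and the Timp2 1460287_at call without CD25 IL-1b 3 or any 1 of the AcP+AcPb IL-1b arrays. The counts were 1 in the AcP arm without CD25 IL-1b 3 or without AcP IL-1b 1, and 1 in the AcPb arm without CD25 IL-1b 3. In the AcP+AcPb arm the count was 3 without CD25 IL-1b 3 and 2 without AcP+AcPb IL-1b 1 or 2.

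Markers of some other cells also set the CD25 arm apart, as Timp1 did. Adamts1 did so only among the controls. With IL-1b, Adamts1 averaged 314 in AcP and 292 in AcP+AcPb neurons, against 253 in CD25 neurons. The summed intensity of 9 mural and fibroblast markers was 1198 to 1426 in AcP controls, 1314 to 1785 in AcP+AcPb controls and 1415 to 1732 in AcPb controls, against 2891 to 4063 in CD25 controls. With IL-1b it was 1261 to 1525, 1378 to 1930 and 1789 to 2529 in the same arms, against 2629 to 4039 in CD25 neurons. Most of this sum came from Acta2, smooth muscle actin, with group means from 634.9 to 1741, and Tagln, which binds it, with group means from 70.3 to 1140. Of the 9 genes, 4 were called lower than in CD25 controls in AcP controls, 5 in AcP+AcPb controls and 4 in AcPb controls, and none higher. With IL-1b, 5, 5 and 0 were called lower in the same arms, and 0, 0 and 1 higher. Over all genes, 16.3%, 22.4% and 7.46% were called in AcP, AcP+AcPb and AcPb controls against CD25 controls. With IL-1b these shares were 12.8%, 17.2% and 3.54%. Within the CD25 arm, arrays 1 to 3 had sums of 2648, 2629 and 4039 with IL-1b and of 2891, 3768 and 4063 in controls, where Timp1 read 191, 251 and 597 with IL-1b and 315, 568 and 428 in controls. The sum of 7 progenitor and cell cycle markers was 2833 to 4077 outside the CD25 arm, against 4233 to 5024 within it. Sox2, with an overall mean of 2097, was the brightest of them. Of the 7 genes, 4, 5 and 3 were called lower than CD25 in AcP, AcP+AcPb and AcPb controls, and 1 higher in each. The shares over all genes given above also stand beside these counts and the astrocyte counts that follow. Of 10 astrocyte markers, 3 were higher and 4 lower in AcP than in CD25 controls, 3 higher and 2 lower in AcP+AcPb controls, and 0 higher and 2 lower in AcPb controls. Gfap, an astrocyte filament, had the lowest values in AcP and AcPb controls (-1.98 and -1.73, adjusted p = 0.00019 and 0.0013) and was not called in AcP+AcPb controls (-0.49). The part of these markers in the differences of Timp1, Adamts1 and Timp4 was not tested. Sums for the neuron, astrocyte, oligodendrocyte, microglia and endothelial lists overlapped between the CD25 arm and the others. Single genes were still called. With IL-1b, 3, 6 and 1 of 13 neuron markers were higher than in CD25 in the AcP, AcP+AcPb and AcPb arms, and 0, 0 and 1 lower. In controls 1 was higher in each arm, and 0, 0 and 1 lower. The shares over all genes given above stand beside these counts too.

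**Figure D5:**
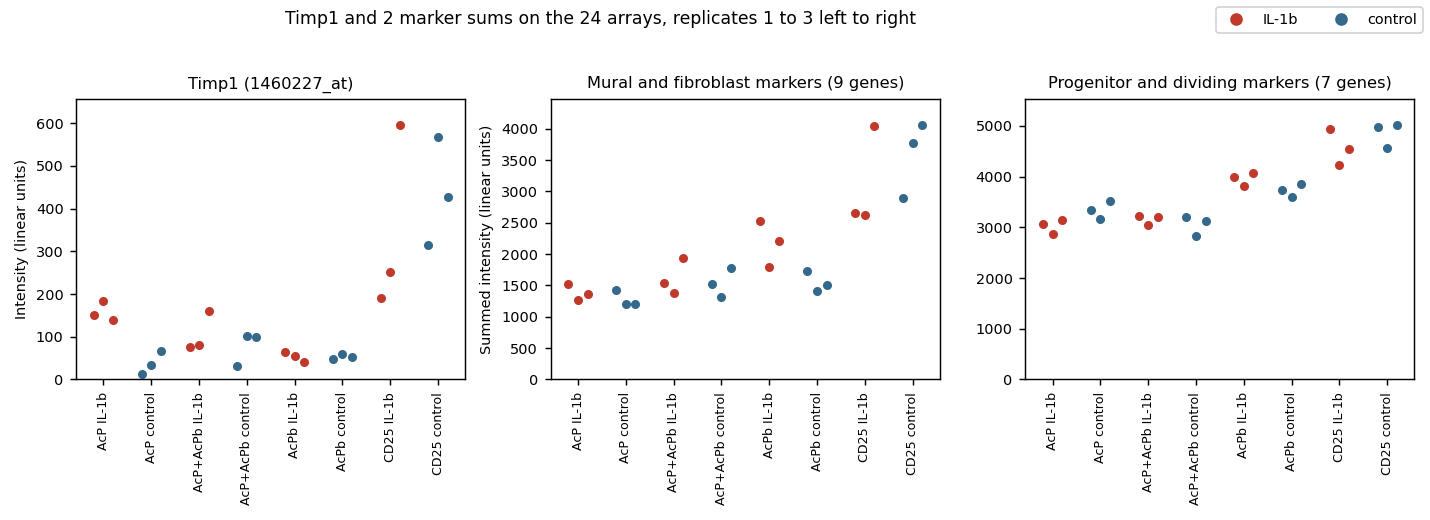
Timp1 intensity and the summed intensities of 9 mural and fibroblast and 7 progenitor and dividing cell markers on each of the 24 arrays (points, replicates 1 to 3 left to right in each group; red IL-1b, blue control). The 6 CD25 arrays are highest in all 3 panels, with Timp1 from 191 to 597 against 11.9 to 184 elsewhere.

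Few genes of the wider matrix lists were called in the IL-1b response. Of 13 tested Adamts and Adamts-like genes, 5 tested Mmps and 10 Adam sheddases, none was called by limma in any response or difference of responses, and 2, 0 and 0 reached an unadjusted p under 0.05 in AcP neurons. Of 19 other inhibitors and activators, 1 rose in AcP neurons: Cd44, the hyaluronan receptor that can dock Mmps, averaged 299.9 with IL-1b and 143 without (1.00 ± 0.20, adjusted p = 0.032, on 1 of 3 probe sets). Of 27 matrix substrates, 1 fell: Vcan, the proteoglycan versican that Adamts1 cuts, averaged 488 with IL-1b and 610.1 without (-0.31 ± 0.07, adjusted p = 0.046, on 1 of 5 probe sets). These 2 lists had no call in the other responses or in the differences between responses. Over all genes 0.639% were called in AcP neurons. The median change was 0.08 for the inhibitors and activators and -0.14 for the substrates, beside 0.0033 over all tested genes.

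Between unstimulated arms the same lists held many more calls. Of the 19 inhibitors and activators, 2 were higher and 6 lower in AcP than in CD25 controls, where 16.3% of all genes were called. In AcP+AcPb controls 1 was higher and 5 lower (22.4% of all genes), and in AcPb controls 1 higher and 5 lower (7.46%). The protease inhibitors Serpina3n and A2m and the receptor Cd44 were among the lower genes in all 3, and the proteoglycan Spock1 was higher in all 3 (0.26, 0.39 and 0.25 in the AcP, AcP+AcPb and AcPb arms). Serpina3n averaged 266 in AcP, 459.8 in AcP+AcPb and 250.3 in AcPb controls, against 1332 in CD25 controls (-2.26, -1.58 and -2.34, SE 0.20 each). A2m, which traps proteases of all classes, averaged 407, 907.5 and 364 in the same 3 arms, against 1718 in CD25 controls. Its difference from CD25 in AcP+AcPb controls, -0.92 ± 0.16, was smaller in size than that in AcP controls (-2.05 ± 0.16), and A2m was higher in AcP+AcPb than in AcP controls by 1.13 ± 0.16 (adjusted p = 0.0089). Cd44 differed from CD25 by -2.03, -1.26 and -2.05 in the AcP, AcP+AcPb and AcPb arms.

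Of the 27 matrix substrates, 3 were higher and 7 lower in AcP than in CD25 controls, 5 higher and 11 lower in AcP+AcPb controls, and 2 higher and 4 lower in AcPb controls. Over all genes, 16.3%, 22.4% and 7.46% were called in the same 3 comparisons. Fn1, fibronectin, averaged 222 in AcP, 256 in AcP+AcPb and 293 in AcPb controls, against 808 in CD25 controls (-1.76, -1.56 and -1.37, SE 0.26 each). Nid1, a basement membrane protein, was lower in all 3 arms (-0.99, -0.96 and -0.76). Sparcl1, a matrix protein made by astrocytes, was higher in all 3 arms (0.80, 0.68 and 0.59). The median difference over the list was 0.01, -0.16 and -0.04 in the AcP, AcP+AcPb and AcPb arms, beside 0.01, -0.02 and 0.0004 over all genes. The substrates Col3a1 and Col1a2 are also in the mural and fibroblast list whose sum was higher in the CD25 arm.

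Of 13 other Adamts and Adamts-like genes, 2 were lower and none higher in AcP controls than in CD25 controls (16.3% of all genes called), 1 lower and 1 higher in AcP+AcPb controls (22.4%), and none was called in AcPb controls (7.46%). There limma gave 3 genes at an unadjusted p under 0.05, beside 5389 of 30468 probe sets over the array. The lower ones were Adamtsl3 in both arms and Adamtsl4 in AcP controls (-0.83 ± 0.22, adjusted p = 0.02), and the higher one was Adamts15 (0.30 ± 0.07, adjusted p = 0.008). Adamtsl3, an Adamts-like matrix protein without a protease domain, averaged 11.03 in AcP and 38.3 in AcP+AcPb controls, against 134 in CD25 controls (-2.48 ± 0.45 and -1.67 ± 0.45, adjusted p = 0.0013 and 0.018). The AcP mean lies below the dim filter and below the added 16, and the AcP+AcPb mean just above the filter. The sizes of these 2 differences therefore depend on the added value. Of 10 Adam sheddases, Adam9 was lower in all 3 arms than in CD25 controls (-0.32, -0.41 and -0.32 in the AcP, AcP+AcPb and AcPb arms), Adam12 was lower and Adam19 higher in the AcP and AcP+AcPb arms. Of the 5 tested Mmps of the list, Mmp17 was higher in AcP controls (0.37 ± 0.09) and Mmp24 lower in AcP+AcPb controls (-0.24 ± 0.07).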

How the data were processed

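RNA of 24 samples was hybridised to Affymetrix mouse 430 2.0 arrays, 3 in each of 8 groups taken from the labels, after column extraction and Eberwine labelling with biotin, per the labels' protocols. Each deposited value is the intensity of a probe set on a linear scale. The method by which the authors summarised and scaled the probes was not given in the sources used here. They run from -1617.3 to 13068.67, with 16.4% to 18.22% of an array below 0, and no detection calls were used, which leaves dim and absent signal unseparated. The number of arrays limits the precision.

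The files list 45077 probe sets, and 40 controls among them were set aside. The platform annotation gave 34945 of the others 1 gene symbol, 932 several and 9160 none. Testing was limited to the 30468 probe sets above the 40th percentile of an array (29.8 to 37.2 intensity units) on 3 arrays or more. Log2 values were computed here from the deposited intensities as log2(value + 16), with values below 0 set to 0, so differences of dim genes are understated and depend on the added 16. Intensities of different probe sets are not compared. The model was limma (version 3.58.1, R 4.3.3, lmFit and eBayes) with 8 group means, 16 residual and 1.94 prior degrees of freedom. P-values are two-sided, adjusted by Benjamini-Hochberg within each of 12 comparisons over all tested probe sets, and called under 0.05. The 3 comparisons of IL-1b-stimulated arms were added after seeing the data. Errors are SEs of log2 changes or SDs of intensities. An exact permutation test of 3 against 3 cannot give a p under 0.1, and none was used. The labels do not state whether a group's 3 arrays are separate cultures, so a p-value here reflects only the spread between these samples, and that spread may be technical.

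The fit was tested on simulated data. The 10 genes, the 5 pathway lists and 7 marker lists were chosen with earlier results of these data known. All members are named. From each list and comparison, up to 4 called genes with the largest change may be named, and for a gene called in an IL-1b response the 3 genes of closest pattern. A gene of a list was counted as called if any of its probe sets was. Acta2, Tagln, Gfap, Sox2, Col3a1, Col1a2, Spock1 and the microglia and endothelial genes are named from marker and pathway lists after their values were seen. Promoter windows came from RefSeq tables of GRCm38.p6, trimmed to the 250 bases before the start. Alternatives covered normalization, the dim filter, the added value, a generalised log, array weights, an intensity trend, the arrays fitted, the replicate number or the label's code (21B, 22B or 23B) as a block, 1 probe set per gene, and each array left out. Same-numbered arrays deviated together (correlation over 0.1) in 2 of 12 pairs, so the numbers were not taken to pair the samples.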

Additional observations from a re-analysis of the deposited data

Results flagged for a closer look

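The IL-1b response of Adamts1 differed between arms by a test of the difference itself. It was larger in AcP than in CD25 neurons by 1.56 log2 units (adjusted p = 0.0028 by limma), and IL-1b arrays lay above the controls in AcP neurons for all 3 arrays and overlapped them in CD25 neurons. With each array left out in turn and under the other alternatives, 25 in all, the difference lay between 1.26 and 1.67 and was called each time. Beside it stand the unstimulated levels, 109 ± 1.80 in AcP and 285 ± 40.4 in CD25 controls (SD, n = 3 each).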

How the results depend on the processing

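Each result was recomputed with 1 choice changed at a time, and no result changed direction. The counts of called probe sets among the 23 kept within 1.5 times their value except as follows. In AcP neurons the count of 1 was 2 with the replicate block (Timp1 added, adjusted p = 0.031) and 1 to 2 with an array left out. In AcP+AcPb neurons the count of 1 was 0 with array medians centred, without the dim filter, with only the arrays of the contrast and with the replicate block. It was 0 to 2 with an array left out. Blocking on the array code set the 3 IL-1b arrays of this arm against control 3 alone, and no count is given for it. For the differences of responses, AcP against CD25 gave 1 to 2 and AcP+AcPb against CD25 gave 0 to 1 with an array left out (2 without AcP control 3, 1 without AcP+AcPb control 3). Blocking on the array code, AcPb against AcP gave 1, Adamts1. AcP+AcPb against AcP controls gave 0 to 1 (1 without AcP control 3). For IL-1b-stimulated arms, all chosen after seeing the data, only the arrays of the contrast gave 1, 0 and 0 in place of 3, 6 and 2 for the AcP, AcP+AcPb and AcPb arms, a fit with fewer samples. Leaving out an array gave 1 to 3, 2 to 6 and 1 to 2. The paired analysis changed no other count by over 1.5 times. The array code was not run for levels of AcP+AcPb against another arm, since no code is shared between them. The causes of the other changes were not tested. Signal near the background limits Mmp2 1439364_a_at, Adamts4 and Timp1 in AcP controls.
Over all 30468 probe sets the counts of calls also moved by over 1.5 times: for IL-1b responses 48 to 322 (123 as reported) in AcP, 8 to 143 (78) in AcP+AcPb, 1 to 185 (3) in AcPb and 0 to 9 (0) in CD25 neurons. For differences of responses they were 36 to 276 (58) for AcP and 22 to 71 (43) for AcP+AcPb against CD25, and 0 to 7 (1) for AcP+AcPb against AcP. Against CD25 controls they were 569 to 5262 (3135) for AcP, 2271 to 5770 (4347) for AcP+AcPb and 839 to 2994 (1400) for AcPb controls, and for AcP+AcPb against AcP controls 1 to 271 (55). With IL-1b in both arms they were 706 to 3131 (2467), 457 to 3981 (3265) and 60 to 988 (655) for AcP, AcP+AcPb and AcPb against CD25.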
